A study of Mus musculus with 4 samples.

Results

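The 9 genes described here encode the myosin heavy and light chain isoforms by which skeletal muscle fibres are classed, with the kinase that phosphorylates the light chain. They were chosen by name and are 9 of the 16472 genes in the table: the heavy chains Myh4, Myh1, Myh2 and Myh7, the essential light chains Myl1 and Myl3, the regulatory light chains Mylpf and Myl2, and the kinase Mylk2. All 9 passed the filter on low values, a mean of at least 20 normalized counts over the 4 libraries. RNA was sequenced from skeletal muscle of wild-type (WT) mice, with 2 libraries of isolated mitochondria and 2 libraries of what is called remaining tissue here. The treatment label of the second group says that mitochondria had been taken out. Its titles say total, however, and the paper's legend for skeletal muscle also names total lysates. Which of these holds is not settled, and remaining tissue serves only as a name. The muscle sampled, the age and number of the mice and any pooling were not given in the sources used here, nor was it said that replicates came from separate animals, so that p-values measure only the spread between these libraries. The methods describe the isolation of mitochondria for heart tissue, with trypsin on the minced tissue and digitonin and RNase A before RNA extraction. Whether skeletal muscle was treated in the same way was not stated. The methods also give a fragmentation time for mitochondrial RNA of its own. Effects of such treatment and of fragmentation cannot be told apart from the groups.

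Myosin II is the motor of the thick filament. A pair of heavy chains carries the motor heads and the coiled tail, and each head binds 1 essential and 1 regulatory light chain. The speed of a fibre follows mainly from its heavy chain: Myh4 encodes type IIb, the fastest, Myh1 type IIx, Myh2 type IIa and Myh7 the slow type I, which is also the beta heavy chain of the heart. Myl1 and Mylpf are the light chains of fast fibres, and Myl3 and Myl2 those of slow fibres and of the heart ventricle. Mylk2, the skeletal muscle myosin light chain kinase, phosphorylates the regulatory chain. These messages are translated outside mitochondria.

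Isolated mitochondria replicates 1 and 2 held 42749263 and 35306106 assigned reads, and remaining tissue replicates 1 and 2 an estimated 15702491 and 15300357. In the same order, genes of the mitochondrial genome took 95.3% and 94.1% of reads in isolated mitochondria against 22.3% and 20.5% in remaining tissue. All other genes held 2019848 and 2077821 reads in isolated mitochondria replicates 1 and 2. Of these, only 78386 and 147749 came from nuclear protein-coding genes, against 10581123 to 10803525 in remaining tissue. Here and below, this set holds 12626 genes and leaves out those with symbols that begin with Gm and a digit. Pearson coefficients between replicates across genes, which are not independent replicates, were 0.983 for remaining tissue and 0.709 for isolated mitochondria, on the log2 scale. Of 8 skeletal muscle markers all were detected and all had a lower level in isolated mitochondria, 7 of them with an adjusted p under 0.05 in the limma fit described below. All 6 fibroblast markers were higher in isolated mitochondria, with a summed level of 10153 to 18571 normalized counts against 1569 to 1675 in remaining tissue, and their part in the results below was not tested.

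To describe the fibre types of the muscle, levels in remaining tissue were compared per kilobase (kb) of exon, since heavy chain transcripts are several times as long as those of light chains. Myh4 was the most abundant member. It measured 21750 and 23178 normalized counts per kb in replicates 1 and 2, and took 8.54% and 9.29% of the reads from nuclear protein-coding genes. Myh1 followed among the heavy chains with 3575 and 3387 normalized counts per kb, and Myh2 with 1830 and 1659. Myh7 was far below them with 185 and 309. Values of the 4 heavy chains did not overlap, and the order from Myh4 through Myh1 and Myh2 to Myh7 was the same in both. In bulk RNA, fewer fibres of a type and less RNA per fibre cannot be told apart.

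The heavy chain genes differ in how far their reads can be assigned. Myh2, Myh1 and Myh4 lie next to each other on the plus strand of chromosome 11 (build GRCm38), at chr11:67171027-67197517, chr11:67200052-67224575 and chr11:67238029-67260446, whereas Myh7 lies on the minus strand of chromosome 14 at chr14:54970684-54994626. Coding sequences were identical at 90.3% of aligned positions between Myh4 and Myh1, at 91.1% between Myh1 and Myh2, at 88.2% between Myh4 and Myh2, and at 77.8% between Myh4 and Myh7. The following stretches of 75 nt, the length of a read, were picked for the fewest differences of Myh1 and Myh2 from Myh4. The counterpart in Myh7 is shown beside them and did not enter the choice. The stretches lie in exon 15 of Myh4 (chr11:67248446-67248520), exon 16 of Myh1 (chr11:67208853-67208927), exon 16 of Myh2 (chr11:67181035-67181109) and exon 17 of Myh7 (chr14:54987456-54987530, minus strand), and capitals mark bases that differ from Myh4.
Myh4: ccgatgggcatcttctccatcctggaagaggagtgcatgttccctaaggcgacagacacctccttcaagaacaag
Myh1: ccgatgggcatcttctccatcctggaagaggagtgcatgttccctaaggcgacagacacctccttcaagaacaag
Myh2: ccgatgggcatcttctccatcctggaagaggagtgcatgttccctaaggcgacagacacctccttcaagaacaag
Myh7: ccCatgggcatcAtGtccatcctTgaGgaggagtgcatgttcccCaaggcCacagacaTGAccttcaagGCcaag

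The 3 fast genes were identical over this stretch and Myh7 differed at 12 positions, so that a read from here could be assigned to Myh7 but not to 1 of the fast chains. A stretch from exon 28 of Myh4 (chr11:67254458-67254532) was picked for the most differences of Myh1 and Myh2 from Myh4. It is shown with its counterparts in exon 29 of Myh1 (chr11:67217464-67217538), exon 29 of Myh2 (chr11:67191348-67191422) and exon 30 of Myh7 (chr14:54978627-54978701, minus strand), again with differences from Myh4 in capitals.
Myh4: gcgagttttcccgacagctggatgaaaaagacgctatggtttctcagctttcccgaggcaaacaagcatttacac
Myh1: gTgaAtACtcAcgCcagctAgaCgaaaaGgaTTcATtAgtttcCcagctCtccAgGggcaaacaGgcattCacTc
Myh2: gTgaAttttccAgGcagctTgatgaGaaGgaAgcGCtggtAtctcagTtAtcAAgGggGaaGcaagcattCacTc
Myh7: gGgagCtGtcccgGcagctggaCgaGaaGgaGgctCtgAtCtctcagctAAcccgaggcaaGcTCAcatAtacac

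Here Myh1 differed from Myh4 at 21 positions, Myh2 at 20 and Myh7 at 18, and reads from each could be told apart. Over the whole of the longest protein-coding transcript, 22.0% of the 75 nt stretches of Myh1 also occurred in another gene, as did 18.3% of those of Myh2, 9.68% of Myh4 and 19.7% of Myh7. The main partner of Myh7 was Myh6, the alpha heavy chain of the heart, which shared 939 of its 6156 stretches. Mylpf, Myl2, Myl3 and Mylk2 shared none, and Myl1 shared 16.6% of its stretches with the pseudogene Mylf-ps. The authors left out reads that aligned to several places, by the same rule in all 4 libraries, and how many reads each gene lost was not measured. Part of the shared stretches, such as those of Myh1 that are also in Myhas, belong to antisense genes at the same place, where a read still aligns to 1 place. Myh1, Myh2 and Myh7 are overlapped by antisense genes and Myl2 and Myl3 by protein-coding genes (Ccdc63 and Pth1r), and as the strand setting of the counting was not stated, their counts are uncertain by an unknown part. Myh4, Myl1, Mylpf and Mylk2 overlap no gene.

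As a share of the 4 heavy chains per kb of exon, Myh4 made up 79.6% and 81.2% in remaining tissue replicates 1 and 2 (80.4% ± 1.19, SD, n = 2). Myh1 made up 13.1% and 11.9%, and Myh2 6.69% and 5.81%. The slow Myh7 made up 0.676% and 1.08%. Fast heavy chains thus held nearly all of the heavy chain RNA in both libraries, and the type IIb chain most of it. In reads, before division by length, Myh4 took 77.8% (95% Wilson interval 77.7 to 77.9%) and 79.5% (79.4 to 79.5%) of the 4 genes' reads. These intervals cover counting error only and did not overlap, so that the replicates differed by more than counting noise. The same counts were also divided by the length of stretches found in no other gene, a length chosen after the data were seen. The Myh4 share was then 76.6% and that of Myh7 1.303%. Reads were not recounted over these stretches.

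**Figure D1:**
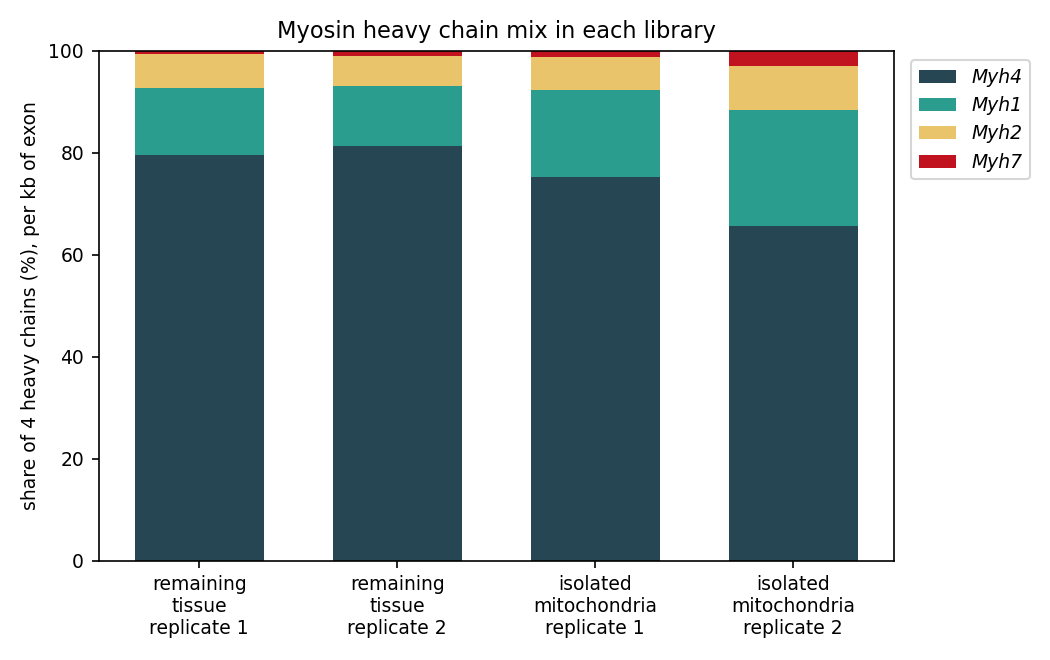
Stacked bars give the share of Myh4, Myh1, Myh2 and Myh7 (%) in the sum of the 4 heavy chains per kb of exon, 1 bar for each library, with no error bars since each bar is 1 library. Myh4 is at 79.6% and 81.2% in remaining tissue and at 75.3% and 65.6% in isolated mitochondria, and isolated mitochondria replicate 2 has the largest share of Myh1 and Myh7.

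Fast forms also made up most of the light chain RNA of remaining tissue. Myl1, the fast essential light chain at chr1:66924295-66945404, measured 4677 and 5862 normalized counts per kb, against 114 and 172 for its slow counterpart Myl3 at chr9:110741861-110769798. Mylpf, the fast regulatory light chain at chr7:127208890-127214298, measured 4418 and 5036, against 79.0 and 151 for the slow Myl2 at chr5:122100951-122113472. The fast chain therefore made up 97.6% and 97.1% of the essential and 98.2% and 97.1% of the regulatory light chain RNA. The gene count of Myl1 merges its transcripts, among them both of its light chain isoforms, and its level per kb depends on the length used, 2074 nt for the union of exons and 1082 nt for the longest transcript.

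Mylk2, at chr2:152911352-152923068, measured 478 and 424 normalized counts per kb in remaining tissue, or 0.108 and 0.0842 of the level of Mylpf, whose product it phosphorylates. Over all 9 members, the order of mean levels per kb in remaining tissue was Myh4, Myl1, Mylpf, Myh1, Myh2, Mylk2, Myh7, Myl3 and Myl2. Myl1 and Mylpf overlapped between the libraries, as did Myl3 and Myl2. The other neighbours in that order did not overlap.

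**Figure D2:**
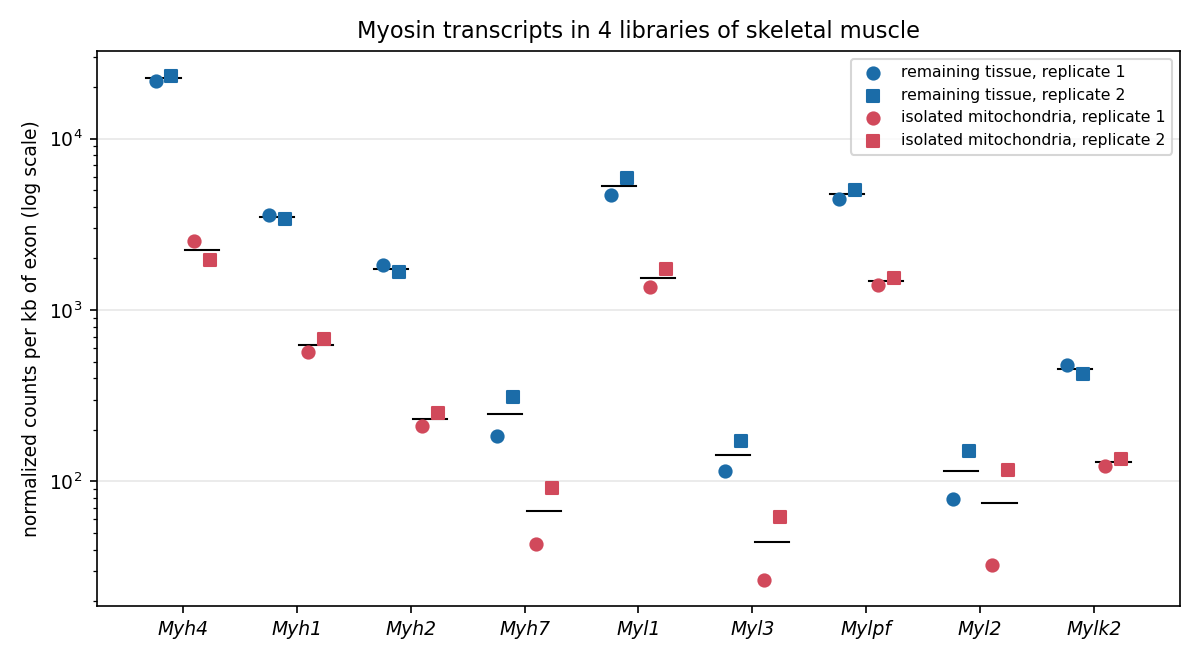
Points give the normalized counts per kb of exon (log axis) of each member in each library, with circles for replicate 1 and squares for replicate 2, and lines mark the mean of each group of 2. All members except Myl2 lie lower in both libraries of isolated mitochondria than in either library of remaining tissue, and the replicates of Myh7, Myl3 and Myl2 lie farther apart than those of the fast members.

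The slow members varied between the libraries of remaining tissue. Myh7 was 1.67 times, Myl2 1.91 times and Myl3 1.504 times as high in replicate 2 as in replicate 1. Ratios of the fast members and the kinase ran from 0.887 for Mylk2 to 1.25 for Myl1, and the 3 fast heavy chains lay between 0.906 and 1.07. Over the 3435 genes with a remaining tissue mean of at least 50, the median ratio was 0.978, the 5th and 95th percentiles were 0.843 and 1.23, and 2.74% had a ratio of at least 1.3. Of 7 other genes of slow fibres, 6 were also higher in replicate 2 and their median ratio was 1.76. Among these, Atp2a2, the slow calcium pump, measured 408 and 632 normalized counts, and Tpm3, slow tropomyosin, 272 and 516. The median ratio of 8 other fast fibre genes was 1.03. Of the heart muscle markers, Myh6 measured 196 and 334 normalized counts and Actc1, cardiac actin, 99 and 226, so that both were also higher in replicate 2, while Tnnt2, cardiac troponin T, measured 6 and 4 and Ryr2, the cardiac calcium release channel, 1 and 1. Their part in the difference was not tested.

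To ask which messages were depleted when mitochondria were isolated, the groups were compared across all genes on the log2(normalized count + 1) scale with limma, and a gene is said to have fallen or risen where the adjusted p was under 0.05. Of the 9 members, 6 fell in isolated mitochondria and none rose, against 9.3% of the 6916 genes tested that fell (643 genes) and 7.32% that rose (506 genes). The median log2 fold change was -1.80 over the members and -0.44 over all genes tested. Values of 8 of the 9 members did not overlap between groups, with the lower ones in isolated mitochondria, as was the case for 43.7% of all genes. All 9 members are muscle genes and 7 of them are abundant ones: among the 106 nuclear protein-coding genes with a remaining tissue mean of at least 1000, a set drawn after the data were seen, 84.0% fell and the median was -1.96. Of the 7 members in that set 6 fell, a share near that of the set.

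**Figure D3:**
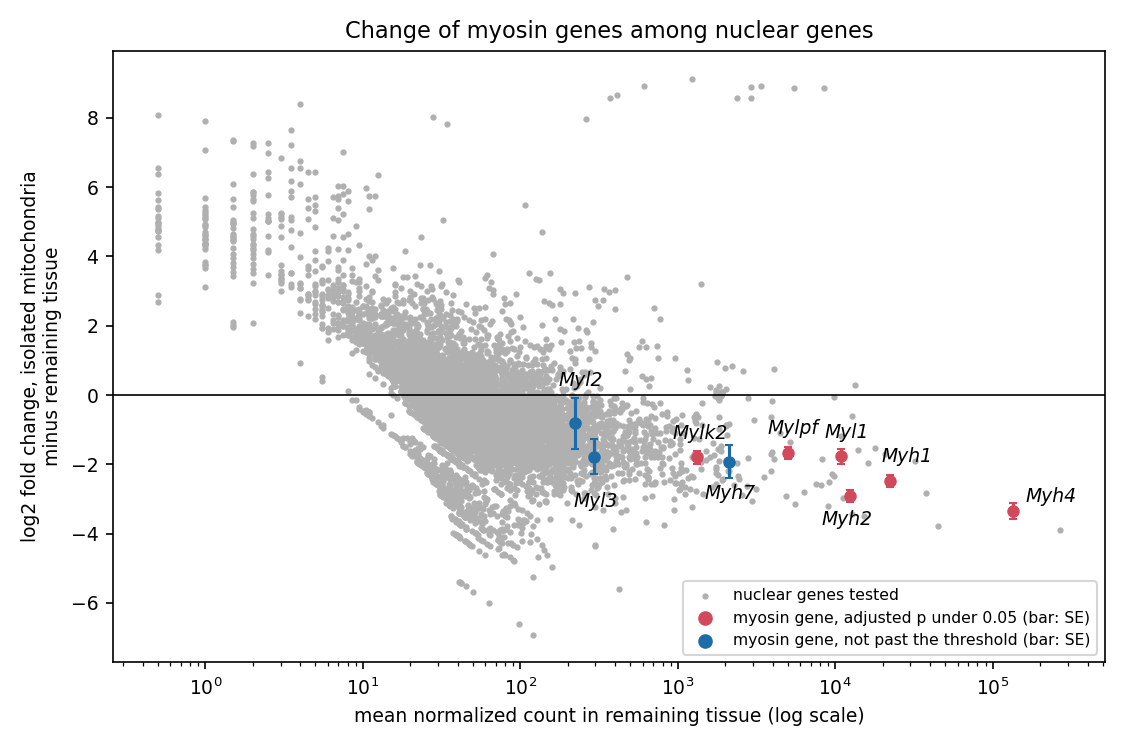
Log2 fold change of isolated mitochondria minus remaining tissue against the mean normalized count in remaining tissue (log axis) for the nuclear genes tested (grey, those listed at 0 in remaining tissue left out) and the 9 members (large points, bars give the SE of the limma fit). Myh4 is the lowest member, at -3.34, and the 3 blue members, Myh7, Myl3 and Myl2, did not pass an adjusted p of 0.05.

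Of the members, the type IIb heavy chain Myh4 had the lowest fold change. It measured 130847 and 139440 normalized counts in remaining tissue and 15166 and 11712 in isolated mitochondria, where these values rest on 1676 and 2315 reads. Both libraries of isolated mitochondria were thus far below both of remaining tissue. The means of 135144 ± 6076 and 13439 ± 2442 (SD, n = 2) differed 10.1-fold (-3.34 on the log2 scale, SE 0.24, limma adjusted p = 0.0084). The change was -2.90 after subtraction of the median over all genes, and 2.46% of the genes tested had a lower one.

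Myh2, the type IIa chain, measured 13063 and 11841 normalized counts in remaining tissue and 1511 and 1791 in isolated mitochondria (167 and 354 reads). The groups were far apart, and the means differed 7.54-fold (log2 fold change -2.92, SE 0.18, adjusted p = 0.0078, limma). Myh1, the type IIx chain, measured 22712 and 21520 against 3629 and 4310 (401 and 852 reads). It too did not overlap, and its means differed 5.57-fold (-2.48, SE 0.19, adjusted p = 0.0092, limma). Each of the 3 fast heavy chains fell under all 19 alternative settings, with adjusted p from 2.37e-84 to 0.0352.

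The fast light chains and the kinase also fell, with fold changes nearer to 0 than those of the fast heavy chains. Myl1 measured 9701 and 12157 normalized counts in remaining tissue and 2832 and 3577 in isolated mitochondria (313 and 707 reads), a 3.41-fold difference (-1.77, SE 0.23, adjusted p = 0.022, limma). Mylpf measured 4692 and 5348 against 1493 and 1639 (165 and 324 reads), a 3.21-fold difference (-1.68, SE 0.17, adjusted p = 0.0151, limma). Neither gene overlapped between groups, and both were lower in isolated mitochondria. Mylk2 measured 1411 and 1251 against 362 and 400 (40 and 79 reads), also without overlap, and its means differed 3.49-fold (-1.80, SE 0.18, adjusted p = 0.0144, limma). Scaled to the total of nuclear protein-coding genes, Myl1 and Mylpf no longer passed the threshold (adjusted p = 0.0927 and 0.0725, limma) while Mylk2 did (adjusted p = 0.046, limma), with values of -0.71, -0.62 and -0.74. Over the 19 alternatives the adjusted p ran from 1.52e-09 to 0.0927 for Myl1, from 1.13e-16 to 0.0725 for Mylpf and from 6.79e-12 to 0.046 for Mylk2.

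The 3 slow members did not pass the threshold. Myh7 measured 1592 and 2660 normalized counts in remaining tissue and 371 and 789 in isolated mitochondria, from 41 and 156 reads. The groups did not overlap, and the difference of -1.93 had an SE of 0.48 (adjusted p = 0.0692, limma). Myl3 measured 234 and 352 against 54 and 126, from 6 and 25 reads, again without overlap (-1.78, SE 0.50, adjusted p = 0.0869, limma). Myl2 measured 154 and 294 against 63 and 228, from 7 and 45 reads. Its groups overlapped, since isolated mitochondria replicate 2 was above remaining tissue replicate 1 (-0.82, SE 0.74, adjusted p = 0.456, limma), and its value was 0.23 when scaled to nuclear protein-coding genes. On reads, edgeR's quasi-likelihood test called Myh7 and Myl3 lower (adjusted p = 0.0273 and 0.0379) and Myl2 not (adjusted p = 0.525), so that 8 of 9 members fell against 17.6% of all genes. DESeq2 on reads also called 8 of 9, against 12.7%. With TMM scaling edgeR called 7, without Myl3 (adjusted p = 0.0582). Leaving out 1 library leaves 1 library in its group, which is then assumed to vary like the other group. Myh7 passed the limma threshold in 1 of 4 such fits, without remaining tissue replicate 1 (adjusted p = 0.000402, the others 0.0533 to 0.146). Myl3 also passed in 1, without isolated mitochondria replicate 2 (adjusted p = 0.0497, the others 0.0588 to 0.304), and its value ran from -2.39 without that library to -1.18 without isolated mitochondria replicate 1. Over the 19 alternatives the adjusted p reached 0.261 for Myh7, 0.343 for Myl3 and 0.896 for Myl2.

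In isolated mitochondria replicate 2 all 3 slow members were above replicate 1, Myh7 2.13 times, Myl3 2.33 times and Myl2 3.62 times, while the fast members and the kinase had ratios of 0.772 for Myh4 to 1.26 for Myl1. Over the 3191 genes tested with an isolated mitochondria mean of at least 50 and reads in replicate 1, the median ratio was 1.12 and the 5th and 95th percentiles were 0.245 and 3.37, and 15.3% had a ratio at least as high as Myh7. Genes of heart muscle, in which Myh7, Myl2 and Myl3 are also active, were detected in the same libraries. Myh6 measured 525 and 1543 normalized counts (58 and 305 reads) in isolated mitochondria against 196 and 334 (1.81, SE 0.62, adjusted p = 0.122, limma). Tnnt2 rose, with 118 and 243 against 6 and 4 (4.85, SE 0.51, adjusted p = 0.0157, limma), and Ryr2 measured 36 and 162 against 1 and 1 (5.28, SE 1.15, adjusted p = 0.0533, limma). Of 9 heart markers listed, 5 were in the table and 4 of these were detected in isolated mitochondria, with a summed level over all 5 of 833 and 2469 normalized counts in isolated mitochondria and 311 and 571 in remaining tissue. Of the 4 markers tested 1 rose, against 7.32% of all genes tested, with log2 fold changes from 0.92 for Actc1 to 5.28 for Ryr2. Actc1 did not pass the threshold. Myl4, the atrial light chain, was at 0 in both libraries of isolated mitochondria, and the 4 markers not in the table were not analysed here. The part of heart RNA in the values of the slow members was not tested.

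**Figure D4:**
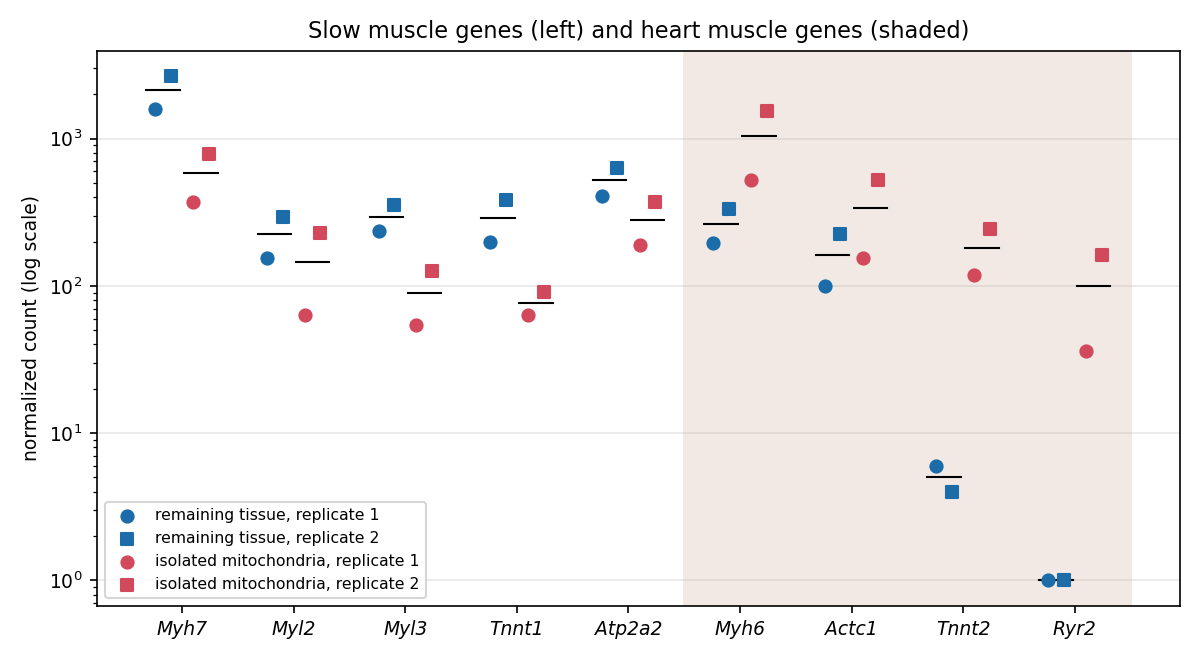
Points give the normalized count (log axis) in each library for the slow members Myh7, Myl2 and Myl3 and other slow fibre genes (left) and for genes of heart muscle (shaded), and lines mark the mean of each group of 2. Replicate 2 (squares) lies above replicate 1 (circles) in both groups for the 5 slow genes plotted, whereas Casq2, a slow gene not plotted, measured 35 normalized counts in either library of remaining tissue, and Myh6, Tnnt2 and Ryr2 lie higher in isolated mitochondria. Tnnt1, slow troponin T, was added after its values were seen.

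The proportions among the members do not depend on the scaling between libraries. Myh4 made up 75.3% and 65.6% of the heavy chains per kb in isolated mitochondria (70.5% ± 6.87, SD, n = 2), below both libraries of remaining tissue. Myh1 made up 17.1% and 22.9%, above both values of remaining tissue. The share of Myh7, 1.29% and 3.09%, was also above both, and that of Myh2, 6.33% and 8.46%, overlapped. In reads, the share of Myh4 was 73.3% (Wilson interval 71.5 to 75.1%) and 63.0% (61.4 to 64.5%) in isolated mitochondria. Each interval lay below those of remaining tissue, but the replicates differed from each other by more than their intervals. The smallest p of an exact permutation test in this design is 0.333, and none was run for shares.

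Within a library, Myh4 was also lower relative to the light chains in isolated mitochondria. The ratio of Myh4 to Myl1 per kb was 4.65 and 3.95 in remaining tissue and 1.85 and 1.13 in isolated mitochondria, and that of Myh4 to Mylpf was 4.92 and 4.60 against 1.79 and 1.26. Neither ratio overlapped between groups. Myh4 to Myh1 went from 6.08 and 6.84 to 4.41 and 2.87, while Myh1 to Myh2 was higher in isolated mitochondria, at 2.698 and 2.703 against 1.95 and 2.04. The ratio of the light chains Myl1 to Mylpf was 1.06 and 1.16 against 0.971 and 1.12 and overlapped, as did that of Mylk2 to Mylpf. Among the slow members, Myh7 to Myl2 was 2.34 and 2.05 in remaining tissue and 1.33 and 0.783 in isolated mitochondria. The fast share of the light chains overlapped between groups, with Myl1 at 98.1% and 96.5% of the essential chains and Mylpf at 97.8% and 93.0% of the regulatory chains.

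Longer transcripts had lower fold changes across abundant genes. Of the 106 abundant nuclear protein-coding genes, the 6 with a longest transcript of up to 1000 nt had a median log2 fold change of -1.04, the 15 of 1000 to 2000 nt -1.63, the 32 of 2000 to 4000 nt -1.81, the 14 of 4000 to 6000 nt -2.38 and the 39 longer ones -2.60. Mylpf (766 nt) at -1.68 and Myl1 (1082 nt) at -1.77 lay below the first quartiles of their classes, -1.305 and -1.741, and Mylk2 (2951 nt) at -1.80 lay near the median of its own. The fast heavy chains of 6016 to 6083 nt stood on both sides of the median of theirs, with Myh1 at -2.48 above it and Myh2 at -2.92 and Myh4 at -3.34 below it. Myh7 (6230 nt), at -1.93, was above it. Ordered from the lowest change, Myh4 was number 5 of the 106, after Ttn, Neb, Ryr1 and Cmya5, which have longer transcripts, and Myh2 was number 11. The part of transcript length in the difference between heavy and light chains was not tested, nor was that of the isolation steps.

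**Figure D5:**
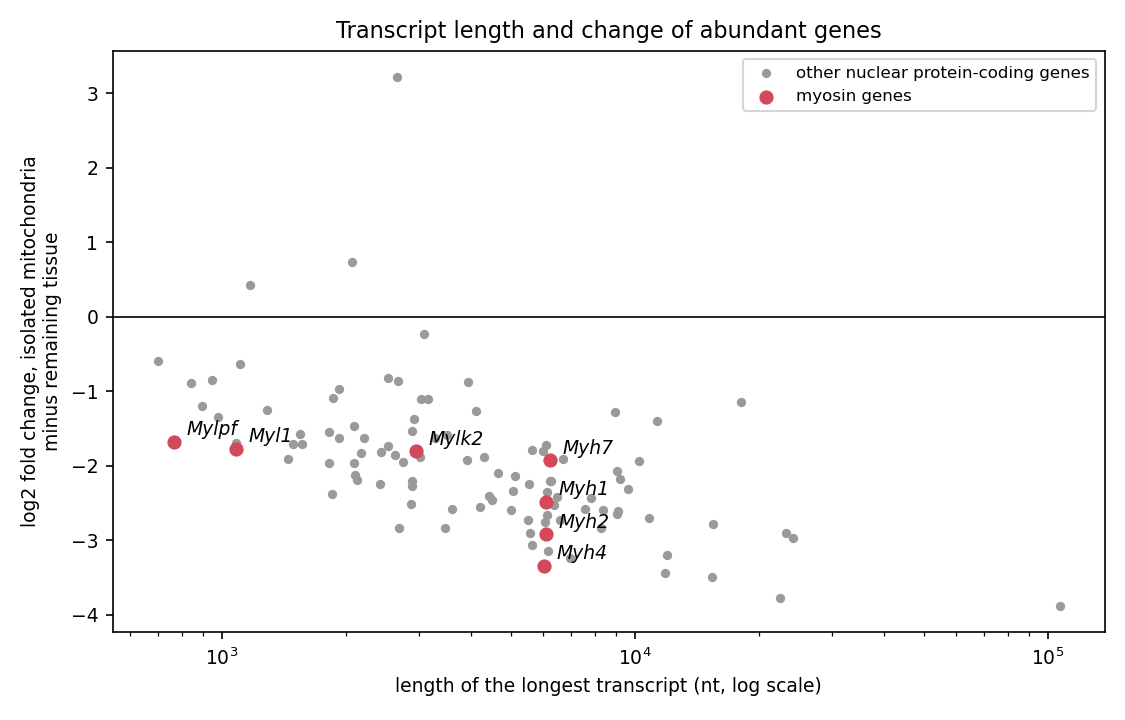
Log2 fold change of isolated mitochondria minus remaining tissue against the length of the longest transcript (nt, log axis) for the 106 nuclear protein-coding genes with a remaining tissue mean of at least 1000, with the 7 members among them in red. Points are single genes and have no error bars. Longer transcripts lie lower, and Myh1, Myh2, Myh4 and Myh7, which are nearly equal in length, spread from -1.93 to -3.34.

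Other myosin genes were measured beside the members. Of the 16 genes on this list that were measured, 12 were tested. Of these, 4 fell, against 9.3% of all genes tested, and none rose, with a median of -0.48. All 4 are heavy chains: Myh8 (perinatal, -3.15, adjusted p = 0.005, limma), Myh13 (extraocular, -2.76, adjusted p = 0.0084), Myh14 (a nonmuscle chain, -2.72, adjusted p = 0.0231) and Myh3 (embryonic, -2.26, adjusted p = 0.0189). Myh8 measured 5346 and 5814 normalized counts in remaining tissue, and at 454 and 494 per kb it stood above the slow Myh7. Since 12.9% of its stretches of 75 nt occur in other genes, mainly in Myh2, Myh1 and Myh4, its count is uncertain. Myh9, a nonmuscle heavy chain found in most cells, measured 376 and 414 against 335 and 415 and its groups overlapped. Myh8 and Myh3 were the 2 markers of developing muscle tested. Myh13 and Myh14 were the 2 genes tested of the list for extraocular muscle, of which Myh14, as a nonmuscle chain, marks no such muscle. Of 4 smooth muscle markers tested none fell or rose, and their summed level was 257 to 291 against 202 to 299 normalized counts.

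Of 10 other genes of light chain phosphorylation, 2 fell, against 9.3% of all genes tested, and none rose, with a median of -0.85. Mylk4, a related kinase, measured 2591 and 2488 normalized counts in remaining tissue and 326 and 354 in isolated mitochondria (-2.90, adjusted p = 0.0057, limma), beside -1.80 for Mylk2. Ppp1r12b, a targeting subunit of myosin phosphatase, changed by -2.58 (adjusted p = 0.0204, limma).

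Of the partners of myosin in the thick filament and the M-band, 9 of 14 fell and none rose, with a median of -2.10. Over all genes tested 9.3% fell. Of the 106 abundant nuclear protein-coding genes, to which Ttn, Myom1, Myom2, Mybpc1 and Mybpc2 belong, 84.0% fell. The giant ruler Ttn changed by -3.88, the M-band proteins Myom1 and Myom2 by -3.06 and -2.35, and the myosin binding proteins Mybpc2 (fast) and Mybpc1 (slow) by -2.58 and -1.92. The myosin chaperone Unc45b changed by -2.41, the methyltransferase Smyd1 by -2.01, and the ubiquitin ligases Trim54 and Trim55 by -2.06 and -1.64. All 9 had adjusted p of 0.0042 to 0.0291 in the limma fit. Mybpc3, the heart form, was at 0 in remaining tissue and at 27 and 147 normalized counts in isolated mitochondria, with 3 and 29 reads, and did not pass the threshold.

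The 8 other genes of fast fibres are mostly of the thin filament or of calcium handling. All belong to the 106 abundant nuclear protein-coding genes, of which 84.0% fell. Of the 8 listed, 7 fell, with a median of -1.62. They were the troponins Tnnt3 (-1.70) and Tnni2 (-1.19), Tpm1 (-1.54), the Z-disc protein Actn3 (-2.28), the calcium pump Atp2a1 (-2.84), Casq1 (-2.38) and parvalbumin Pvalb (-1.34). Of 7 slow fibre genes none fell or rose, against 9.3% and 7.32% of all genes tested. The median of the 7 was -0.94, with values from -4.18 to 0.47. Atp2a2 measured 190 and 369 normalized counts in isolated mitochondria (-0.94, adjusted p = 0.198, limma) and Tpm3 190 and 354 (-0.53, adjusted p = 0.457, limma). Counts of slow genes in isolated mitochondria were 0 to 73 reads per library, and whether slow and fast genes differ in their change was not tested.

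Genes with a remaining tissue mean of at least 200 were ordered by how near their values over the 4 libraries lay to the mean pattern of Myh1, Myh2 and Myh4, as a Euclidean distance of log2 values after subtraction of the mean in remaining tissue. Of 830 candidates the nearest were Mylk4 (distance 0.0607), Gpcpd1 (0.105), Atp2a1 (0.166), Dmd (0.197) and Myo18b (0.209). Their log2 fold changes ran from -2.94 to -2.84. The pattern is mainly the size of the change, since only 4 libraries enter the distance.

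The 3 fast heavy chains all fell, by different amounts, and lie side by side. The 250 bases before the RefSeq start of each are shown for reference (build GRCm38.p6, plus strand: Myh4 chr11:67237562-67237811, Myh1 chr11:67199852-67200101, Myh2 chr11:67170777-67171026). Capitals mark matches, on either strand, to the E-box CANNTG, the MCAT element CATTCC, the TATA box TATAAA and the MEF2 and CArG motifs.
Myh4: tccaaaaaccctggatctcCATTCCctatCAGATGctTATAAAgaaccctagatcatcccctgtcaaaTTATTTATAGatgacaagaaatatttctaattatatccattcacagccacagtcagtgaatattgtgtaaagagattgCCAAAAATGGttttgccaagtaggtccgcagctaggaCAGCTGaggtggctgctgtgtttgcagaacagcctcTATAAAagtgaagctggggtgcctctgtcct
Myh1: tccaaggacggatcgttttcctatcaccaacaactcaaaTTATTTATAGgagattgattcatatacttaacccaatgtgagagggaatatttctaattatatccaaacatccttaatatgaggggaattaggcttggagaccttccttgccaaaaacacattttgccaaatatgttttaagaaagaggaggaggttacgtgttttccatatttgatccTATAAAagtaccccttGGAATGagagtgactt
Myh2: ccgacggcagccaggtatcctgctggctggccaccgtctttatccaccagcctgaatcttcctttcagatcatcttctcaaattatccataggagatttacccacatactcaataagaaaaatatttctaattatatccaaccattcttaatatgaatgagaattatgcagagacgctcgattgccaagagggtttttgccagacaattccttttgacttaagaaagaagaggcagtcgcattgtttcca

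A TATA match lay 25 bases before the start of Myh4 and 26 bases before that of Myh1, and each also held 1 MEF2 match, inside which a further TATA match lies, and Myh4 held 1 more TATA match far from its start. Myh4 also held 2 E-boxes, 1 MCAT and 1 CArG match, and Myh1 held 1 MCAT match and no E-box. Myh2 held no match in the window before its annotated start. The last letters of that window resemble letters of the Myh1 window that lie before the TATA match nearest to its start and the MCAT match. Whether such matches lie beyond the end of the Myh2 window was not examined. Of all 32851 promoter windows of this length, 66.2% held an E-box, 12.6% an MCAT element, 12.4% a TATA match, 1.69% a MEF2 match and 1.47% a CArG match. These matches describe the letters, and no binding was measured.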

How the data were processed

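Mouse skeletal muscle was measured in 2 libraries of isolated mitochondria and 2 of remaining tissue, by single-end sequencing of total RNA with a stranded kit for small input. Per the labels, the authors used Trimmomatic 0.39, STAR 2.7.10a, featureCounts 2.0.2 and DESeq2 1.30.1 with build mm10 (GRCm38), from the submitters' processing notes. Their methods state that reads overlapping several genes or aligning to several places were left out. The strand setting was not given in the sources used here. The deposited values are a signal: the authors divided gene counts by a size factor per library and rounded to whole numbers, called normalized counts here.

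In isolated mitochondria, values under 2000 were whole multiples of 9.049 and 5.059 normalized counts (99.95% and 99.97% of values), which gave back whole reads. Reads of remaining tissue were estimated at 7.05 per normalized count. This factor was assumed equal for both libraries and assumes that the size factors were medians of ratios to the geometric mean of each gene. Tests on reads, and the Wilson intervals and chi-square of remaining tissue, rest on this estimate. A pair of replicates differed by more than counting noise in both groups (chi-square per degree of freedom 8.42 and 102). Reads carry no molecular identifiers, so that intervals (95% Wilson) cover counting error only.

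Genes with a mean of at least 20 entered a two-sided limma 3.58.1 test (eBayes with trend) of log2(normalized count + 1) in R 4.3.3, Benjamini-Hochberg adjusted over all 6916 genes, threshold 0.05. The pseudocount of 1 understates changes of low genes. Alternatives were other pseudocounts, filters and scalings, a replicate block, each library left out, edgeR 4.0.16 and DESeq2 1.42.0 on reads. Scripts were tested on simulated data. Levels per kb used the union of exons in GENCODE M21, in which 16457 of 16472 identifiers were found. Promoters come from RefSeq. Mylk2 has no promoter shown.

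The members and all lists (other myosins, light chain phosphorylation, thick filament partners, fast and slow fibre genes, markers of skeletal, heart, smooth, developing and extraocular muscle and fibroblasts) were chosen with earlier results of these data known. Named genes are the members, the list genes that passed the threshold, the 2 most abundant of a list without any, and the 5 nearest to the fast heavy chain pattern. Exceptions named for their role are Mybpc3, Myh9 and the heart markers, and Tnnt1 was picked after its values were seen. A listed gene is not reported here.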

Additional observations from a re-analysis of the deposited data

How the results depend on the processing

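Of the 9 members, 4 to 9 fell under the 19 alternatives and none rose. Myh1, Myh2, Myh4 and Mylk2 passed the threshold in all 19, Mylpf in 18, Myl1 in 17, Myh7 in 8, Myl3 in 7 and Myl2 in 2. The 2 passes of Myl2 were those under which most genes fell, and these are also among the passes of Myh7 and Myl3. The fold change of Myl2 turned to 0.23 with scaling to nuclear protein-coding genes and ranged from -1.74 without isolated mitochondria replicate 2 to 0.10 without isolated mitochondria replicate 1. All other members kept their direction, and all 9 lay below the median of all genes except in 2 settings, each without 1 library (remaining tissue replicate 2 and isolated mitochondria replicate 1), where Myl2 lay above it. The number of genes that fell (643) became 3026 without a filter, 399 with a mean of at least 5, 384 with quantile normalization, 374 with eBayes without trend and 1215 with edgeR; the number that rose (506) became 283 with a mean of at least 5, 305 with a mean of at least 100, 939 with edgeR, 1106 with edgeR and TMM, and 1404 with DESeq2. Fewer or more genes were tested under the other filters (1677 to 16472); for the rest the cause was not tested.

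Scaling decided the split of all genes. Relative to the total of all genes 6694 fell and 38 rose, with a median of -6.90; relative to the total outside the mitochondrial genome 5642 fell and 114 rose, with a median of -3.34; relative to nuclear protein-coding genes 155 fell and 1438 rose, with a median of 0.59. Fallen genes of the related lists then numbered 50, 46 and 14, against 22, and 8 rose under the last of these, 4 with edgeR and 5 with DESeq2, against 0. The share of rises among calls, 44.0% here, was 18.02% without a filter, 33.1% with a mean of at least 100, 55.1% with quantile normalization, 55.9% with edgeR and TMM and 61.6% with DESeq2. Leaving out each library in turn, with the lone library of a group assumed to vary like the other group, 176 to 3198 genes fell, 296 to 1724 rose, 6 to 7 members fell and 15 to 36 list genes fell. With a replicate block 1144 genes fell and 630 rose, and 8 members fell, Myh7 and Myl3 among them. The labels' numbers do not say that libraries were paired, so no pairing was used. Deviations of same-numbered libraries correlated across genes with r = 0.141 over 2 pairs. Counting noise in isolated mitochondria would lower this r, so that it cannot decide whether libraries were paired.

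In remaining tissue the share of Myh4 was 78.8% with the longest transcript, 78.6% without division by length and 78.99% with Myh3 and Myh8 in the sum. It was 76.6% with division by the length of stretches found in no other gene. That of Myh7 was 1.19%, 1.23% and 1.303% in the first, second and last case. The share of Mylpf was 96.4% with the longest transcript and 95.8% without division, and 91.9% in isolated mitochondria without division. Shares without either replicate are those of the single libraries. Values of the slow members rest on 6 to 156 reads per library of isolated mitochondria.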
